A study of Mus musculus with 6 samples.

Results

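Macrophage genes for complement, lipid transport and scavenging were followed across the labelled cells of treated CT26 tumors. The set holds 9 of the 31053 genes of the deposited count table, *C1qa*, *C1qb*, *C1qc*, *Apoe*, *Trem2*, *Mrc1*, *Spp1*, *Gpnmb* and *Cd163*, chosen by name as known genes of tumor macrophages. Their levels were read in all 12 cell type labels of the deposited annotation, and their detection in the same cells was read inside the label Myeloid, which 2680 of the 33961 cells carry (7.89%).

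CT26, a mouse colorectal carcinoma line, was grown in Balb/c mice, tumors were taken 5 days after treatment, and cells positively selected for CD45 were profiled by droplet-based single-cell mRNA-seq of 3′ ends, in which a unique molecular identifier (UMI) marks every captured transcript so that copies are not counted again. The sample labels list 6 tumors in 3 groups of 2, given vehicle, a low dose of a PD-1 GITR-L bispecific antibody, or a high dose of it (30 mg kg-1). The low dose is 10 mg kg-1 in the treatment protocol and 30 mg kg-1 in the sample characteristics. The table holds 4 libraries, M1, M2, M5 and M6, which no label ties to a tumor or a dose, so values are given library by library, no treatment was compared and no p-value is given.

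C1qa, C1qb and C1qc are the chains of C1q, the recognition molecule of the classical complement pathway. C1q binds antibody complexes and dying cells, and unlike most complement proteins it is made mainly by macrophages and related cells rather than by liver. Apolipoprotein E carries cholesterol out of lipid-laden cells, and TREM2 is a lipid-sensing receptor that signals through TYROBP. MRC1 (CD206) takes up mannosylated glycoproteins, CD163 takes up haemoglobin bound to haptoglobin, SPP1 (osteopontin) is a secreted ligand of integrins and CD44, and GPNMB is a glycoprotein of lysosomes and the cell surface. Macrophages with C1q, with TREM2 and APOE, or with SPP1 are often described as separate states in tumors.

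In the GRCm38 genome (GENCODE M21) the C1q genes lie side by side on the minus strand of chromosome 4, *C1qb* at chr4:136880129-136886187, *C1qc* at chr4:136889804-136893065 and *C1qa* at chr4:136895917-136898803, within 18675 bases. *Apoe* lies at chr7:19696109-19699188 on the minus strand. On the plus strand are *Trem2* at chr17:48346401-48354147, *Mrc1* at chr2:14229392-14332057, *Spp1* at chr5:104435118-104441050, *Gpnmb* at chr6:49036546-49070929 and *Cd163* at chr6:124304656-124330527. All are annotated as protein coding. Of the 9 genes, 8 have RefSeq promoter windows of 250 bases before the start, 11 windows in all, and *C1qa* has none in the table used. The core letters bound by PU.1, a transcription factor of myeloid cells, GAGGAA or its complement TTCCTC on the other strand, were found in 7 of the 11 windows and in 23.3% of all 32851 windows. Read from 5′ to 3′, the match began 30 bases before the start in *C1qb*, 193 in *C1qc*, 40 in *Trem2*, 113 in *Spp1*, 35, 167 and 180 in *Mrc1*, and 132 and 250 in windows of *Apoe*. The letters TGANTCA of AP-1 were in 1 of the 11 windows, that of *Trem2*, and in 6.75% of all, and CACGTG of MITF and related factors was in 0 of the 11 and in 6.02% of all. A match is a description of letters and not a site. The windows of *C1qb*, a gene of Myeloid cells in these data, and of *Spp1*, a gene of many labels, are printed because both hold the PU.1 letters, shown in capitals. They are GRCm38.p6 chr4:136886201-136886450 on the minus strand and chr5:104434861-104435110 on the plus strand, 5′ to 3′.
C1qb: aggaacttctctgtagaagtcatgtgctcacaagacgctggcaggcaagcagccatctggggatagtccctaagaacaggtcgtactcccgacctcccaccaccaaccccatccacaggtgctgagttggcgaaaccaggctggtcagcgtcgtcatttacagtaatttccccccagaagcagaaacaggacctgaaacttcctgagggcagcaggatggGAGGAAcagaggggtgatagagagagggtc
Spp1: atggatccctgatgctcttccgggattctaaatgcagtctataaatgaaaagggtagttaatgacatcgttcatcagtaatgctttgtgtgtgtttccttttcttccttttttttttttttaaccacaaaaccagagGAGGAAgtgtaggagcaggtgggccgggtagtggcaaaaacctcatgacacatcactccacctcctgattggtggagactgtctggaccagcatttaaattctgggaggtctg

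The label Myeloid was checked against markers. All 7 macrophage markers, among them *Lyz2*, *Csf1r* and *Adgre1*, were highest in it over the pooled libraries, and their summed level was 7537 to 8943 CPM over the libraries (CPM, UMIs of a gene scaled to the total UMIs of the cells of a label). *Lyz2*, lysozyme of macrophages and neutrophils, had 6633 CPM in Myeloid and 554 in ILC. The label held other myeloid cells as well. All 5 neutrophil markers were also highest in it, with a summed level of 810 CPM in M1 and 1300 in M2, with 1223 in M5 and 1963 in M6, and so were 4 of 6 mast cell and basophil markers, at 1452, 1018, 1453 and 1025. Of the monocyte markers 2 of 5 were highest there, at 1446 to 1951 CPM. Dendritic markers were highest there in 0 of 7 cases (87.2 to 154 CPM), T cell markers in 0 of 3 (192 to 353), and no marker of any list was at 0. Of the Myeloid cells, 1176 (43.9%) carried a UMI of a CD3 chain, *Ncr1* or *Cd79a*, genes of T, NK and B cells, at a median of 16891 UMIs per cell against 4921 in the others. Median depth was 8027 UMIs in Myeloid, 6882 to 8938 over the libraries. Cell barcodes found in 2 libraries numbered 111, and 17 Myeloid cells carry one.

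*C1qa*, *C1qb*, *C1qc*, *Trem2* and *Mrc1* were genes of Myeloid cells in all 4 libraries, *Apoe* was shared with B cells, and *Spp1* and *Gpnmb* were as high or higher elsewhere. Of the 9 genes, 8 passed 10 CPM in Myeloid, and 6 of these 8 were highest in Myeloid in every library, where 7.46% of the 7763 genes past that level were. At least 2-fold above every other label in every library were 5 of the 8, against 2.67% of all genes. The annotation was made from whole expression profiles that include these genes, so these levels are a description. *Cd163* did not pass, at 2.61 CPM.

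**Figure D1:**
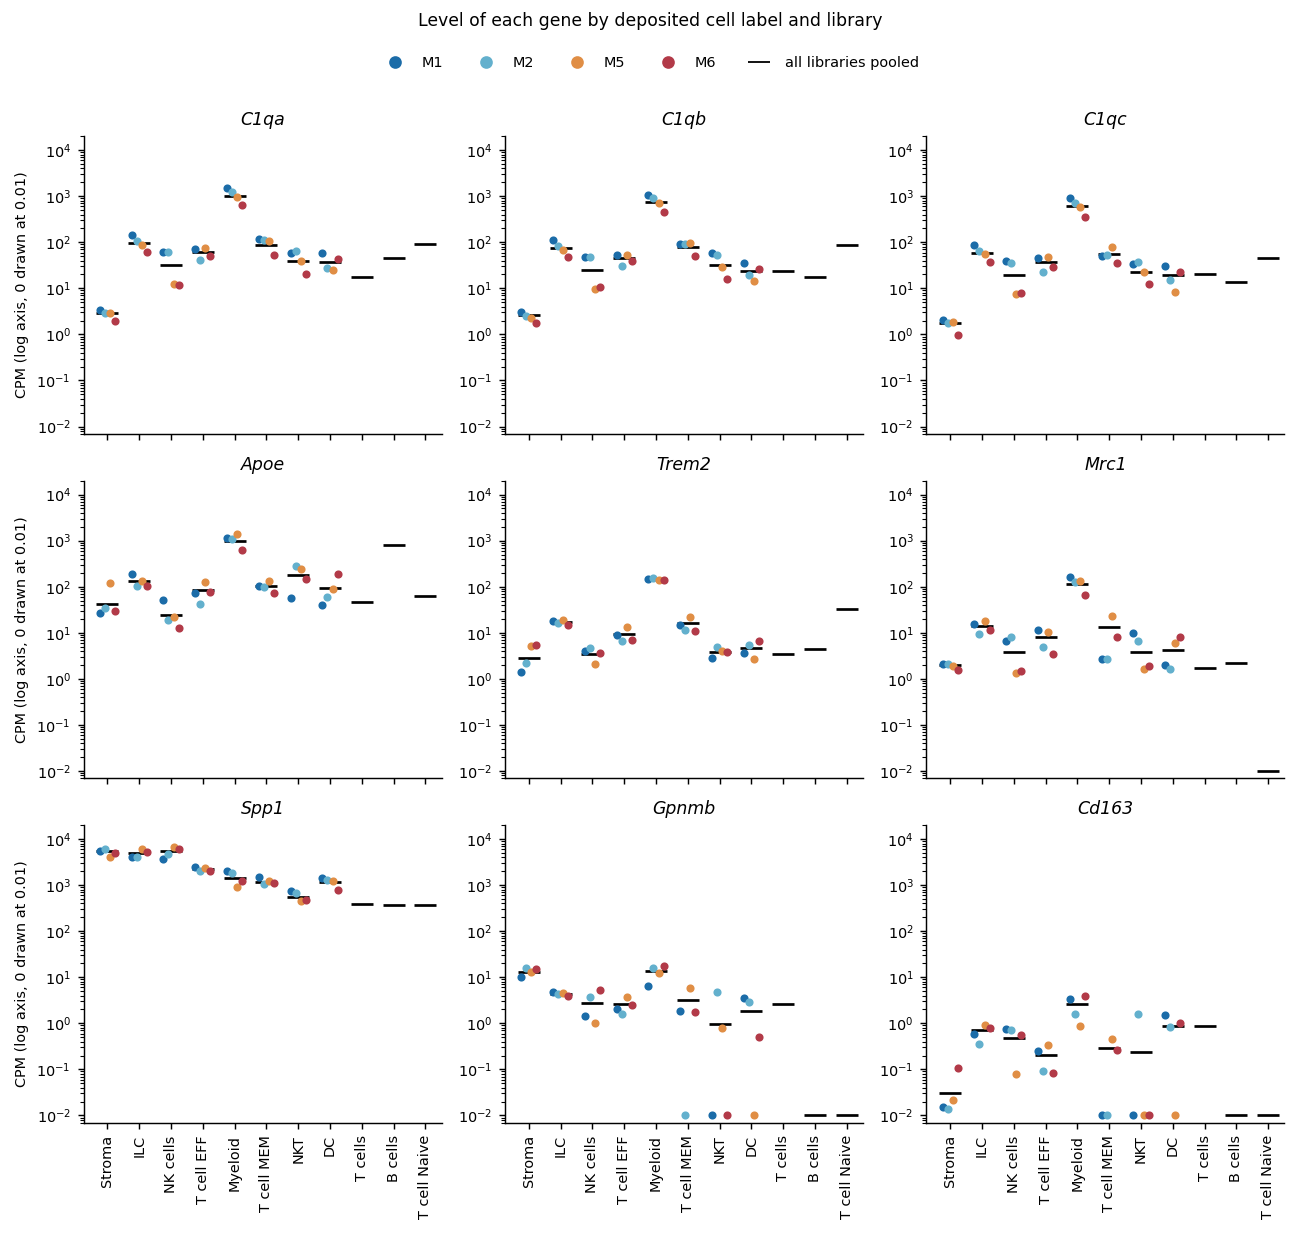
Level of each gene in CPM (log axis, a value of 0 drawn at 0.01) by deposited cell label, with points for the libraries where a label has at least 20 cells in all 4, and bars for the pooled value. The label Stem cells (37 cells) is left out. The C1q genes, *Trem2* and *Mrc1* stand out in Myeloid, whereas *Spp1* is highest in Stroma, ILC and NK cells.

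*C1qa* had 1034 CPM in Myeloid over the pooled libraries, and the next label, ILC, had 95.5, 10.8-fold less. The ranges over the libraries, 631 to 1545 in Myeloid and 60.6 to 147 in ILC, did not overlap. For *C1qb* the levels were 748 in Myeloid, 87.3 in T cell Naive, 77.6 in T cell MEM and 74.1 in ILC, and for *C1qc* 604 in Myeloid and 58.6 in ILC. Below Myeloid the order was not resolved, since for *C1qa* ILC overlapped T cell MEM (54.1 to 120) and neighbours from there down to NK cells overlapped too. Stroma was lowest for all 3 chains, at 2.98, 2.58 and 1.75 CPM. Myeloid cells held 73.0%, 71.4% and 72.2% of all UMIs of *C1qa*, *C1qb* and *C1qc*.

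*Trem2* had 147 CPM in Myeloid, 32.2 in the 55 cells of T cell Naive, 17.3 in ILC and 2.79 in Stroma. *Mrc1* had 116 in Myeloid and 14.0 in ILC, 8.25-fold less, followed by T cell MEM at 13.3. Both followed the C1q pattern of a single high label. *Cd163* was at 2.61 CPM in Myeloid from 99 UMIs and at 0.858 in DC, and 47.1% of its UMIs were in Myeloid. Its counts are too few to order the other labels.

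*Apoe* was also high in B cells. Its level was 1003 CPM in Myeloid and 820 in B cells, a ratio of 1.22, and NKT followed at 184, ILC at 131, Stroma at 42.0 and NK cells at 24.5. The B cell value rests on 363 UMIs in 124 cells, of which 58 carried a UMI, and it was 614 CPM in M1 and 765 in M2, with 2105 in M5 and 196 in M6. Myeloid and B cells overlapped in these ranges, but M5 held fewer than 20 B cells and so was not counted for the call above. The highest B cell, in M5, held 67 UMIs, and the label had 679 CPM without it. In NKT a single cell of M5 held 260 *Apoe* UMIs, and the level fell from 184 to 121 without it. C1q was low in the same B cells, with 34 UMIs of the 3 chains together. Thinned to 2000 UMIs per cell, 46 of 112 B cells (41.1%) carried an *Apoe* UMI, nearly the share of Myeloid cells (40.7%). Although Stroma was low in CPM, it held 34.3% of all *Apoe* UMIs, against 45.1% in Myeloid, and its level was 118 CPM in M5 and 27.3 to 34.7 in the other libraries.

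*Spp1* was not a Myeloid gene here. It had 5533 CPM in NK cells, 5449 in Stroma (the label of 46.2% of the cells in a CD45-selected preparation), 4984 in ILC, 2246 in T cell EFF and 1460 in Myeloid. The first 3 labels overlapped over the libraries, with 3780 to 6606 in NK cells, 4161 to 6180 in Stroma and 4110 to 5947 in ILC, and lay above T cell EFF in each library, where T cell EFF had 1982 to 2443. Stroma cells held 83.3% of all *Spp1* UMIs and Myeloid cells 1.22%. DC and T cell MEM had 1182 CPM each, NKT 540, and B cells were lowest at 361.

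*Gpnmb* had 13.6 CPM in Myeloid and 13.3 in Stroma. Over the libraries these were 6.48, 15.7, 12.2 and 17.9 in Myeloid and 10.2, 16.1, 13.3 and 14.9 in Stroma for M1, M2, M5 and M6, so the labels were not separated. ILC followed at 4.40. Stroma held 89.1% of *Gpnmb* UMIs and Myeloid 5.002%. The 1777 Stroma cells with a UMI of *Col3a1*, a collagen of fibroblasts, among 2000 drawn had 16.3 CPM of *Gpnmb* and 6302 of *Spp1*. The 13865 with none drawn had 13.0 and 5365. *Spp1* was higher with *Col3a1* in each library. *Gpnmb* was higher with it in M1 (16.5 against 9.51) and M2 (18.3 against 15.8), but lower in M5 (11.5 against 13.5) and M6 (14.4 against 14.9). None among 2000 UMIs does not show that a cell lacked the collagen. Whether cells of the label Stroma are fibroblasts or CT26 tumor cells was not tested.

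Between libraries, the C1q genes were ordered alike within Myeloid, highest in M1, then M2 and M5, and lowest in M6, while *Trem2* was level in pooled CPM. Of the 8 genes past 10 CPM, 7 differed at least 2-fold between the highest and the lowest library, against 5.94% of all 7763 genes, and the median fold was 2.39 against 1.27. Without M6 the count was 2, without M1 it was 4 and without M5 it was 5. The same 7 passed a factor of 1.5, against 20.1% of all genes. Libraries of unknown treatment are not replicates, so these are differences between 4 preparations, and the intervals given (exact Poisson, 95%) cover counting error only.

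**Figure D2:**
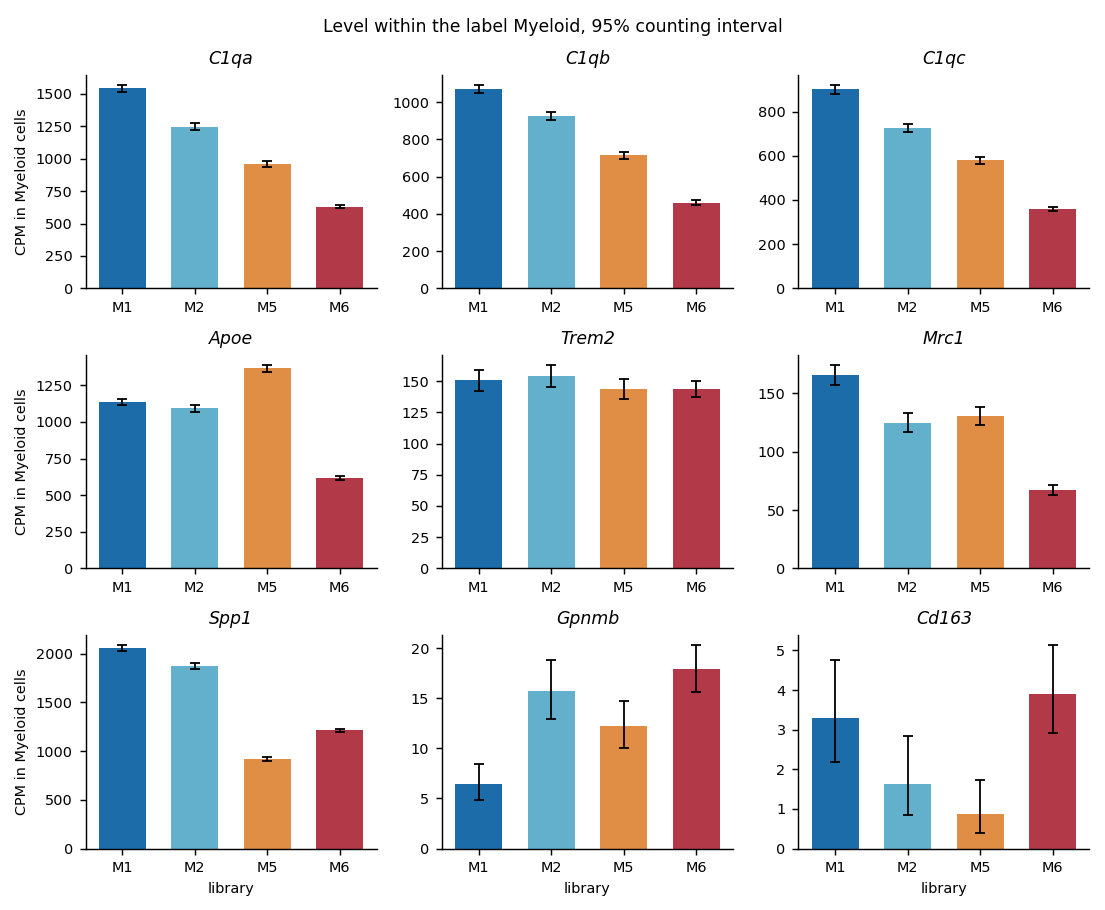
CPM of each gene in Myeloid cells of the 4 libraries (bars, from 0) with exact Poisson 95% intervals, which cover counting error only. The 3 C1q genes are ordered M1, M2, M5, M6, *Trem2* stays between 143 and 154, *Apoe* peaks in M5 and *Spp1* is lowest in M5.

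*C1qa* had 1545 CPM in M1 (interval 1519 to 1572) and 1248 in M2 (1223 to 1274), with 959 in M5 (939 to 980) and 631 in M6 (618 to 645). *C1qb* had 1071, 926, 713 and 460 in the same order, and *C1qc* 902, 725, 580 and 359. No counting intervals of neighbouring libraries overlapped, and the chains moved nearly in step, with highest to lowest ratios of 2.45, 2.33 and 2.51. *Mrc1* had 166 CPM in M1 and 125 in M2, with 130 in M5 and 67.2 in M6, and M2 and M5 overlapped in their intervals. *Apoe* had 1135, 1093, 1365 and 615, so that M6 was lowest as for C1q but M5 was highest. When cells were weighted equally, M1 was highest at 1358 and M5 had 1184. *Trem2* had 151, 154, 144 and 143 CPM, a ratio of 1.07 with all 4 intervals overlapping. When cells were weighted equally *Trem2* had 142 in M1 and 149 in M2, above 104 in M5 and 103 in M6.

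*Spp1* in Myeloid had 2057 CPM in M1 and 1871 in M2, with 923 in M5 and 1211 in M6. Its order differed from that of C1q only in M5 and M6. Summed fibroblast markers (*Col1a1*, *Col3a1* and *Dcn*) in Myeloid had the same order as *Spp1*, at 121, 64.7, 33.3 and 43.3 CPM in M1, M2, M5 and M6. Whether they are related was not tested. *Gpnmb* was lowest in M1 at 6.48 CPM (4.88 to 8.44) from 55 UMIs and highest in M6 at 17.9 (15.6 to 20.3) from 233, with 15.7 (13.0 to 18.8) in M2, which overlapped M6, and 12.2 in M5. *Cd163* had 3.30, 1.62, 0.882 and 3.91 CPM from 28, 12, 8 and 51 UMIs, held by 37 cells, 21 of the UMIs in a single cell. No order of the libraries was kept for this gene, since without Myeloid cells that carry lymphocyte transcripts the levels were 8.11, 2.87, 0.792 and 0.576. Summed neutrophil markers were lowest in M1 and highest in M6, the reverse of C1q, but not between M2 and M5, where both were lower in M5. A filter then left out the 1529 Myeloid cells (57.1%) with 2 or more UMIs of mast cell, basophil, neutrophil or dendritic markers. Among the remaining cells the ranges of *C1qa*, *C1qb* and *C1qc* fell from 2.45, 2.33 and 2.51 to 2.06, 2.005 and 2.15. They were thus just above 2-fold, with M1 highest and M6 lowest, and *Mrc1* differed 1.80-fold with M5 highest. In the same cells *Gpnmb* differed 7.58-fold, at 38.4 CPM in M6 and 5.07 in M1, and *Cd163* 1.76-fold with M5 highest.

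Between libraries, both the share of cells with C1q and the number of C1q UMIs in them differed. Each cell was thinned to 2000 UMIs, which left out 133 of the 2680 cells. Cells with 10 or more summed C1q UMIs made up 20.7% of Myeloid cells in M1 (114 cells, exact binomial 95% interval 17.4 to 24.4) and 18.1% in M2 (101 cells, 15.0 to 21.5), but 10.6% in M5 (68 cells, 8.36 to 13.3) and 6.01% in M6 (48 cells, 4.46 to 7.89). Within them the mean was 22.8, 20.9, 22.2 and 20.02 C1q UMIs of 2000. Over all Myeloid cells the mean was 5.62, 4.68, 3.02 and 1.89, and the cells with 10 or more held 83.9%, 80.7%, 78.2% and 63.6% of the C1q UMIs. The limit of 10 was set on the count itself, so these cells are a range and not a cell type, and it holds the mean within them nearly fixed. With a limit of 1 UMI, added after seeing the data, the shares were 44.2%, 44.2%, 31.6% and 29.2%, and the means within those cells 12.7, 10.6, 9.56 and 6.48.

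Most Myeloid cells carried no C1q UMI, and those that did most often carried every chain, except in M6. At 2000 UMIs, *C1qa* was detected in 27.7% of Myeloid cells, *C1qb* in 26.2% and *C1qc* in 25.5%, and without thinning in 40.0%, 38.1% and 36.3%. All 3 chains were found in 18.1% of cells (461 of 2547), 2 in 6.95%, 1 in 11.3% and none in 63.7%. The cells with all 3 made up 27.6% in M1 and 23.3% in M2, with 14.9% in M5 and 10.5% in M6. In M6 cells with 1 chain were more frequent, at 12.3%. For background, *C1qa* was detected after thinning in 5.42% of T cell EFF cells and 4.29% of NK cells, labels that should lack it, at median depths of 10049 and 5397 UMIs against 8027 in Myeloid.

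For the other genes, *Apoe* was detected in 40.7% of Myeloid cells (6.09% of T cell EFF and 4.60% of NK cells), *Trem2* in 17.5% (0.987% and 0.545%) and *Mrc1* in 12.1% (0.705% and 0.308%). *Spp1* was detected in 57.0% of Myeloid cells, fewer than in T cell EFF (72.9%), ILC (71.7%), NK cells (65.5%) and Stroma (93.5%), and not far above T cell MEM (53.8%), B cells (50.9%), DC (44.5%), NKT (44.0%) and the label T cells (41.9%). Activated T cells, NK cells and dendritic cells can make osteopontin, so the labels of those cells give no clean background for *Spp1*. This reason does not cover B cells, whose share of 50.9% was close to the 57.0% of Myeloid cells. After thinning, the highest B cell held 6 *Spp1* UMIs. Whether *Spp1* detection in B cells or in Myeloid cells came from free RNA was not tested. *Gpnmb* was found in 35 Myeloid cells (1.37%) and *Cd163* in 10 (0.393%), so these genes can hardly be followed cell by cell at this depth. Over the libraries the share for *Apoe* was 55.5% in M1 and 44.0% in M2, with 38.0% in M5 and 30.4% in M6, so M5, highest in CPM, was not highest in the share of cells. The *Trem2* share was 18.2%, 21.1%, 16.7% and 15.1%. The top 10% of Myeloid cells by the UMIs of a gene held 65.7% of those of *Apoe* and 57.8% of those of *Spp1*.

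Detection of the C1q chains was tightly linked within libraries. Both *C1qa* and *C1qb* were found in 537 cells, where 198 would share them if detection were independent within each library, and 76.1% of cells with *C1qa* had *C1qb*, against 7.12% of the others. The log2 odds ratio was 6.26 in M1 and 5.30 in M2, with 5.13 in M5 and 4.65 in M6, with a mean of 5.33. For *C1qa* and *C1qc* the mean was 5.16 and for *C1qb* and *C1qc* 5.11. *Apoe*, *Trem2* and *Mrc1* were linked to the chains less strongly, with means of 1.57 to 1.67 for *Apoe*, 2.01 to 2.14 for *Trem2* and 2.17 to 2.25 for *Mrc1*. Among themselves the means were 1.44 for *Apoe* and *Trem2*, 1.498 for *Trem2* and *Mrc1* and 1.02 for *Apoe* and *Mrc1*, the last from 0.28 in M5 to 1.35 in M6. Cells of 1 library share that library and its preparation, and cells are not replicates, so these ratios are descriptions.

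*Spp1* was not linked in this way, with the limit that it was detected in many cells of each label given above. With *C1qa* its log2 odds ratio was 0.72 in M1 and 0.20 in M2, with -0.47 in M5 and -0.09 in M6, so that the sign differed between libraries, and the mean was 0.09. The means with *C1qb*, *C1qc*, *Trem2*, *Mrc1* and *Apoe* were 0.19, 0.06, 0.04, 0.40 and -0.25. Of the 36 pairs, 22 had an odds ratio above 1 in every library and 0 below 1 in every library. The 22 include *Gpnmb* with *Cd163*, which shared 0 cells. That ratio came only from the 0.5 added to each cell of the table. *Mrc1* and *Cd163* shared 0 cells in M5 and M6, and *C1qb* and *Cd163* 0 in M6, so their ratios there rest on it too. Of the 21 pairs without *Gpnmb* and *Cd163* the odds ratio was above 1 in every library in 15, and the other 6 were the *Spp1* pairs. Pairs of other genes were not counted in this way, so these counts cannot be set against a share over all genes. Pairs of *Gpnmb* rested on at most 20 cells.

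**Figure D3:**
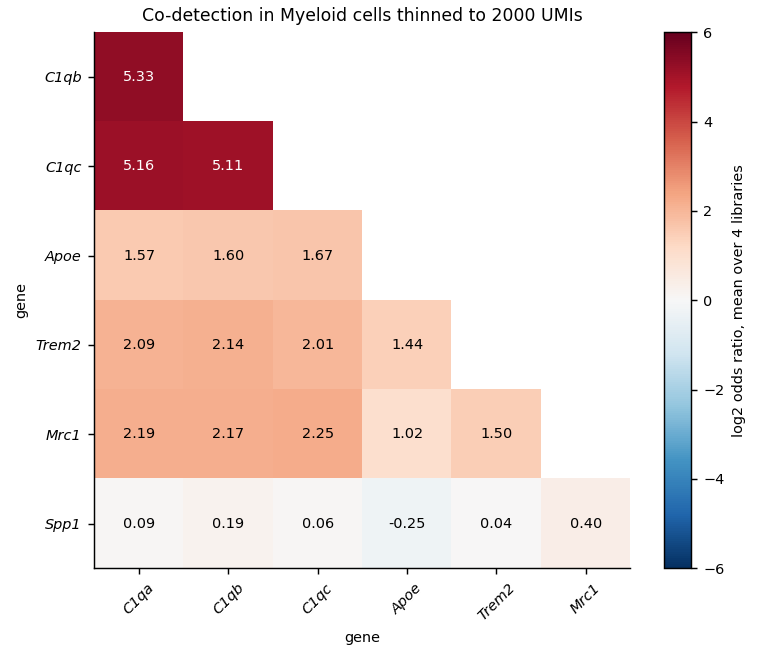
Log2 odds ratio of detection in the same Myeloid cell (thinned to 2000 UMIs) for each pair of 7 genes, as the mean over 4 libraries. The C1q chains stand at 5.11 to 5.33, pairs of C1q, *Apoe*, *Trem2* and *Mrc1* at 1.02 to 2.25, and pairs of *Spp1* near 0.

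Along the number of C1q UMIs per cell, *Apoe*, *Trem2* and *Mrc1* increased and *Spp1* had no common direction. In cells with 0, 1 to 2, 3 to 9 and 10 or more C1q UMIs of 2000 (1622, 320, 274 and 331 cells), *Apoe* was detected in 31.4%, 40.6%, 59.1% and 71.3% of cells. *Trem2* was detected in 10.2%, 17.2%, 24.5% and 47.7%, and *Mrc1* in 6.17%, 8.44%, 21.9% and 36.6%. These 3 genes were higher in the top class than at 0 in each of the 4 libraries. *Spp1* was detected in 55.4%, 56.2%, 63.9% and 60.1% over the pooled cells, but the libraries diverged in the top class, at 76.3% in M1 and 69.3% in M2, with 32.4% in M5 and 41.7% in M6. *Gpnmb* was detected in 1.54%, 1.25%, 1.09% and 0.906%.

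Cells with many C1q UMIs also carried macrophage markers more often. *Ms4a7*, a macrophage membrane protein, was detected in 9.37%, 17.5%, 35.4% and 57.7% of cells along the same classes, *Adgre1* (F4/80) in 7.21%, 12.2%, 18.2% and 33.2%, and *Grn*, the lysosomal progranulin, in 35.8%, 42.5%, 62.4% and 81.0%. Cathepsin B, *Ctsb*, was detected in 64.7%, 71.6%, 82.5% and 95.8%, and the scavenger receptor gene *Stab1* in 4.25%, 8.12%, 16.8% and 21.8%. All of these shares were higher with more C1q. *Ly6c2* of monocytes was detected in 37.6%, 24.4%, 22.3% and 15.1% and *Cpa3* of mast cells in 15.7%, 7.19%, 2.55% and 0.604%. The neutrophil markers *S100a8*, at 19.7%, 26.9%, 21.2% and 9.67%, and *Csf3r*, at 14.4%, 19.4%, 8.39% and 6.04%, were most frequent at 1 to 2 C1q UMIs and least frequent at 10 or more. The dendritic marker *Flt3* was rare throughout, at 0.370%, 0%, 1.46% and 0.302%. Detection of the T cell gene *Cd3e* was 8.82%, 7.81%, 12.8% and 7.85%. The libraries differed for the lipid genes *Fabp5* and *Plin2*. *Fabp5* was detected in 26.5% of cells with 0 and 54.4% of cells with 10 or more C1q UMIs in M5, and in 27.4% and 47.9% in M6, but in 13.4% and 14.0% in M1 and 22.8% and 29.7% in M2. *Plin2* was detected in 40.5% and 61.8% in M5, 25.7% and 33.3% in M1, 39.4% and 39.6% in M2, and 44.3% and 39.6% in M6.

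**Figure D4:**
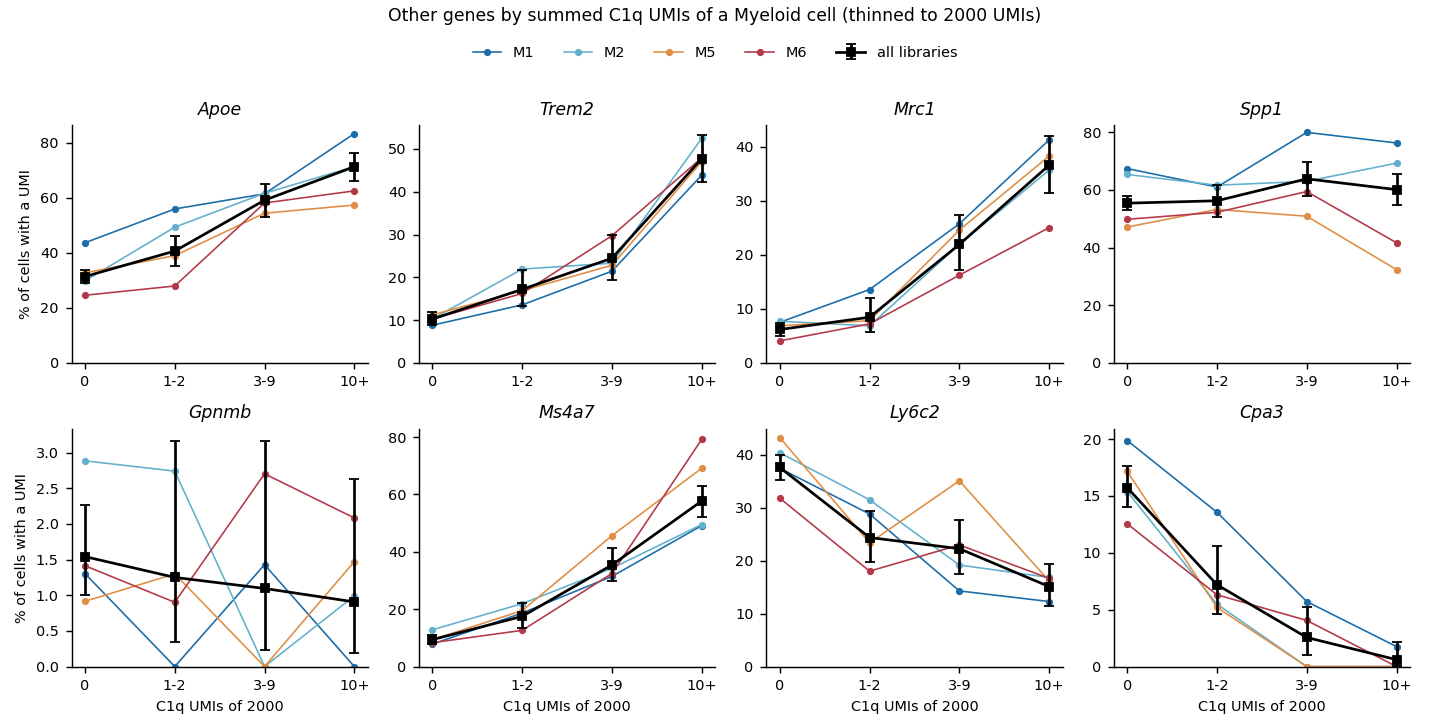
Share of Myeloid cells with a UMI of a gene, by the summed C1q UMIs of the cell (all thinned to 2000 UMIs), for each library (thin lines) and over all cells (black, with exact binomial 95% intervals). *Apoe*, *Trem2*, *Mrc1* and *Ms4a7* climb in every library between the classes 0 and 10 or more, *Ly6c2* and *Cpa3* decline, and *Spp1* goes up in M1 and M2 and down in M5 and M6.

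Levels were compared between cells with and without C1q as well. In the 925 Myeloid cells with at least 1 C1q UMI of 2000, *Apoe* had 1421 CPM against 649 in the 1622 without, *Trem2* 215 against 91.2 and *Mrc1* 195 against 50.2, ratios of 2.19, 2.36 and 3.88. All 3 were higher in each library. *Trem2* had 221 CPM in M1 and 231 in M2, with 211 in M5 and 203 in M6 in cells with C1q, and 71.7, 74.9, 95.1 and 106 in cells without. With every cell thinned to 2000 UMIs the cells without C1q had 58.6, 67.3, 68.6 and 65.4 CPM, so their order over the libraries changed with thinning. *Spp1* was lower with C1q in all 4 libraries, at 1624 against 2551 CPM in M1 and 1473 against 2286 in M2, with 824 against 995 in M5 and 1070 against 1306 in M6. With every cell thinned this did not hold for each class of C1q, as cells with 0, 1 to 2, 3 to 9 and 10 or more C1q UMIs had 1109, 1136, 907 and 908 CPM of *Spp1* pooled, and cells with 1 to 2 exceeded those with 0 in M5 (968 against 807) and M6 (1374 against 996). *Gpnmb* had 8.60 CPM with and 17.7 without C1q, lower in M1, M2 and M6 and higher in M5. *Cd163* had 4.89 with and 0.770 without, higher in 3 of 4 libraries.

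*Spp1* detection in a cell does not tell how much it held, and high *Spp1* cells were found mostly outside Myeloid. After thinning, 10 or more *Spp1* UMIs of 2000 were found in 41.0% of Stroma cells, 20.5% of ILC, 16.7% of NK cells, 11.1% of T cell EFF and 4.99% of Myeloid cells (127 cells). The libraries gave 42.7%, 46.6%, 27.1% and 35.9% in Stroma and 9.83%, 19.5%, 20.05% and 16.6% in NK cells for M1, M2, M5 and M6. In Myeloid they gave 6.36%, 6.26%, 3.13% and 4.63%. B cells had 0 of 112 such cells, which allows a share of up to 2.68%, and the label T cells 0 of 198, which allows up to 1.52%. The median cell held 8 *Spp1* UMIs of 2000 in Stroma, 2 in ILC and T cell EFF, and 1 in NK and Myeloid cells, so that the NK cell level came from fewer cells with more. The highest NK cell held 352 *Spp1* UMIs of 2000 and the highest Stroma cell 160.

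**Figure D5:**
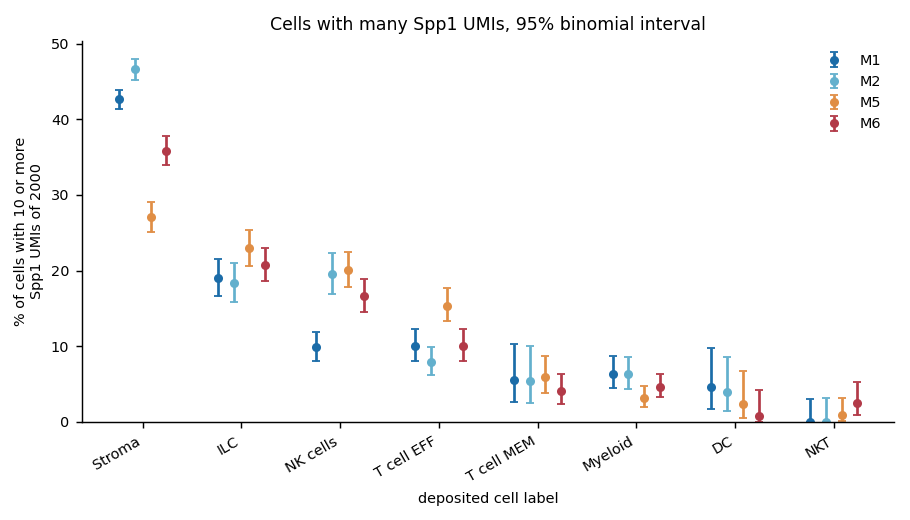
Share of cells with 10 or more *Spp1* UMIs after thinning to 2000, by deposited label and library, with exact binomial 95% intervals. Stroma lies at 27.1% to 46.6%, ILC and NK cells at 9.83% to 22.95%, and Myeloid at 3.13% to 6.36%.

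Among NK cells, the genes whose counts went most closely with *Spp1* were granzymes, proteases of cytotoxic granules. Over 4218 NK cells and 4728 genes, the Spearman correlation averaged over libraries was 0.55 for *Gzmc*, 0.48 for *Gzmd* and 0.46 for *Gzme*, followed by *Ifitm2* at 0.41. This search, and the next comparison, were added after the *Spp1* levels were seen. *Sparc*, a matrix gene of Stroma in these data, was taken for comparison. There were 20.7 *Spp1* UMIs per *Sparc* UMI in Stroma, 57.6 in Myeloid, 86.6 in T cell EFF, 231 in ILC and 370 in NK cells. The ratio was thus higher in each of those labels than in Stroma. Cells with 10 or more *Spp1* UMIs were rarer than in Myeloid in B cells, DC, NKT, T cell Naive and the label T cells. There the ratio was 40, 43.0, 82.2, 27.3 and 51.4, so the pooled Myeloid ratio lay within the range of these labels. Over the libraries the Myeloid ratio was 42.6 to 99.6. *Sparc* had 9.03, 13.8 and 7.70 CPM in B cells, T cell Naive and the label T cells. With 124, 55 and 203 cells, those ratios rest on few *Sparc* UMIs. In T cell MEM, where 5.07% of cells had 10 or more *Spp1* UMIs against 4.99% in Myeloid, the ratio was 192.

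In ILC and T cell EFF most C1q transcripts were held by few cells, whereas in Stroma they were spread over many. Cells with 10 or more C1q UMIs (not thinned) made up 24.6% of Myeloid, 3.41% of ILC (158 cells), 2.04% of T cell EFF (74), 0.796% of NK cells (35) and 0.140% of Stroma (22). They held 85.1% of the C1q UMIs of ILC, 73.6% of those of T cell EFF, 55.7% in NK cells, 18.9% in NKT and 8.28% in Stroma. Without thinning 10.6% of Stroma cells carried a *C1qa* UMI, at a median of 40692 UMIs per cell. The ILC cells among them were deep, with a median of 40561 UMIs against 9774 in the label, and T cell EFF had 30091 against 10049, while the NK cells had 8429 against 5397. A limit on unthinned counts favours deep cells, and in Myeloid the medians were 18714 against 8027. The chains kept nearly the same ratio in the labels named here. There were 43.3 *C1qa* UMIs per 100 C1q UMIs in Myeloid, 41.9 in ILC and 42.6 in T cell EFF. NK cells had 41.6 and Stroma 40.8. Elsewhere the value was 47.0 in DC and 39.9 in T cell MEM. It was 58.8 in B cells and 28.8 in the label T cells, from 34 and 73 C1q UMIs.

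Other macrophage genes came with them. In the 158 ILC cells *Lyz2* had 2820 CPM against 302 in the rest of the label, *Apoe* 795 against 57.4, *Trem2* 101 against 8.02 and *Mrc1* 79.8 against 6.68. *Ncr1*, the NK receptor NKp46, was lower at 188 against 448 and *Spp1* at 2455 against 5266. In the 74 T cell EFF cells *Lyz2* had 2926 against 228 CPM, *Apoe* 877 against 40.6 and *Cd3e* 264 against 459. In CPM these cells were thus higher in macrophage genes than the rest of their label and lower, but not at 0, in *Ncr1* or *Cd3e*. They were also deeper, at a median of 40561 UMIs against 9470 in ILC and 30091 against 9919 in T cell EFF. A lower CPM therefore does not show fewer UMIs of these genes per cell. Whether these cells are doublets was not tested. After thinning, *C1qa* and *C1qb* occurred together in 115 ILC cells where 18.4 would share them if detection were independent, and in 53 NK cells where 9.09 would.

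The pathways around these genes were followed with 6 lists. Of 14 complement genes past 10 CPM (of 18 listed), 8 were highest in Myeloid in every library and 2 differed at least 2-fold between libraries, with a median fold of 1.33. Over all 7763 genes 7.46% were highest in Myeloid and 5.94% differed 2-fold, with a median fold of 1.27. *C3ar1*, the receptor for the C3a fragment, had 184, 229, 197 and 167 CPM in M1, M2, M5 and M6, and *C3*, the central component, had 74.0, 133, 224 and 237, opposite to C1q. *Cfp* (properdin), of the alternative pathway, had 242 CPM pooled, and *Calr*, a binding partner of C1q, 612.

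Of 18 lipid handling genes past 10 CPM, 9 were highest in Myeloid and 7 differed at least 2-fold between libraries, with a median fold of 1.72. *Fabp5* had 157 CPM in M1 and 401 in M2, with 987 in M5 and 583 in M6 and *Plin2*, a lipid droplet coat protein, 197, 345, 469 and 436, both lowest where C1q was highest. *Npc2*, a lysosomal cholesterol carrier, had 1423 pooled and *Lrp1*, an APOE receptor, 130. Of 11 genes on the list of TREM2 signalling, 2 were highest in Myeloid (7.46% of all genes) and 1 differed 2-fold (5.94% of all genes). The 2 were *Grn* and *Trem1*, and the 1 was *Trem1*, named here after its values were seen. *Tyrobp*, the TREM2 adaptor, was not among them, with 1185 CPM in Myeloid and 1659 in NK cells, where it serves other receptors. *Grn* had 590, 568, 530 and 436 CPM, *Spi1*, which encodes PU.1, 225 pooled, and *Adam17*, a sheddase, 127.

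Of 13 scavenger and uptake receptor genes, 9 were highest in Myeloid and 4 differed 2-fold. *Stab1*, stabilin of scavenging macrophages, had 81.8, 65.9, 60.8 and 43.1 CPM in M1, M2, M5 and M6. *Hmox1*, haem oxygenase, had 514 pooled, *Msr1* 342 and *Cd68* 287. Of 19 partners of SPP1 and GPNMB and lysosomal genes, 9 were highest in Myeloid and 4 differed 2-fold, and the highest in level were *Lgals3* at 2489, *Ctsb* at 1538, *Ctsd* at 824 and *Lamp1* at 603 CPM. Of 11 macrophage regulators, 6 were highest in Myeloid (7.46% of all genes) and 1 differed 2-fold (5.94% of all genes), with *Cebpb* at 1222, 1749, 1709 and 2020 CPM and *Irf8* at 606 pooled. No list was tested against others.

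Across 38 profiles of a label in a library with at least 20 cells, the genes most like each one were found by the Pearson correlation of log2(CPM + 1), as a description, since profiles share labels, libraries and depth. *C1qa* was most like *C1qc* (0.96), *C1qb* (0.91) and *Ccl12* (0.91). *C1qb* was most like *C1qc* (0.95), *Ccl12* (0.92) and *C1qa*, and *C1qc* like *C1qa*, *C1qb* and *Lyz2* (0.92). *Trem2* was most like *Gpr84* (0.91), *F13a1* (0.89) and *F10* (0.88), and *Mrc1* like *Stab1* (0.93), *C3ar1* (0.92) and *Pilra* (0.91). *Apoe* had weaker neighbours, *Ralgds*, *Wdfy2* and *Trappc2l* at 0.77 to 0.78. *Spp1* was most like *Dixdc1* (0.95), *Bet1* (0.90) and *Ltbp3* (0.89), *Gpnmb* like *Arhgap23*, *Gata2* and *Rassf8* (0.84 to 0.86), and *Cd163* like *Gm49368*, *Tlr13* and *Cmklr1* (0.75 to 0.78).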

How the data were processed

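Single-cell mRNA-seq of CD45+-enriched cells of CT26 tumors was analysed. The authors aligned and counted reads with Cell Ranger 3.0.2 on GRCm38 and left out cells of 500 UMIs or fewer. They deposited the UMI counts of each gene in each cell without normalization, together with the library of the cell and a cell type label assigned by the highest correlation with ImmGen profiles. The 4 libraries hold 158337797 to 315577167 UMIs in 7160 to 10294 cells. The 9 genes and all lists were chosen with earlier results of these data known.

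Counts were summed per label and library and scaled to CPM. For detection, 2000 UMIs were drawn from each cell without replacement, with a fixed seed, and shallower cells were left out. The thinning was tested on simulated data. The log2 odds ratio was computed within each library with 0.5 added to each cell of the table. Intervals are exact 95% Poisson or binomial intervals and cover counting error only. Beyond the 9 genes, the text names the 3 genes most like each, the 4 of each list with the highest Myeloid CPM, and cell type markers. Other genes named are said in the text to have been chosen after their values were seen. A further gene of these lists and a further promoter motif are not reported here. Genes shown against C1q classes come from these lists. Alternatives were other thinning depths, pseudocounts, scalings (TMM of edgeR 4.0.16, median of ratios), filters on cells and leaving out each library. Cells with barcodes of 2 libraries were left out in an alternative chosen after seeing the data. Python 3.11.15 was used with pandas 2.3.3, scipy 1.17.1 and numpy 2.4.6. No doublet caller was run and free RNA was not corrected. Positions are from GENCODE M21 and promoter windows from RefSeq (GRCm38.p6).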

Additional observations from a re-analysis of the deposited data

How the results depend on the processing

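No paired analysis was possible because the libraries carry no tumor, treatment or replicate number. The 6 genes highest in Myeloid in every library numbered 6 under each setting tried, apart from 5 with a 2-fold margin. The 7 genes that differed 2-fold between libraries were 2 without M6, 4 without M1, 5 without M5 and 7 without M2, so this count rests on M6 and M1. Other scalings, cell filters and the mean over cells gave 6 or 7. The median share of Myeloid cells with a UMI over the 9 genes, 25.5%, was 20.1% at 1000 UMIs, 30.1% at 4000, 38.1% without thinning and 22.6% without Myeloid cells that carry lymphocyte transcripts, and 22.98% to 28.8% with 1 library left out. Depth sets these shares by construction. The mean log2 odds ratio of *C1qa* and *C1qb*, 5.33, was 6.03 at 4000 UMIs, 4.56 without thinning and 6.54 when at least 2 UMIs were asked for, and 5.02 to 5.56 with 1 library left out. That of *C1qa* and *Spp1*, 0.09, had no stable sign: it was -0.013 at 1000 UMIs, -0.15 without cells that carry lymphocyte transcripts, -0.031 at 2 UMIs or more, 1.00 without thinning, and -0.12 (without M1) to 0.28 with 1 library left out. The cause was not tested. Of the 27 most alike genes, 17 were shared with a pseudocount of 0.1 and 10 with immune labels alone. *Trem2* reached a 1.44-fold range and *Spp1* fell to 1.74-fold when cells were weighted equally. Depth limits *Gpnmb* and *Cd163*, with 515 and 99 UMIs in Myeloid.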

Other observations

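The genes below were named after their values were seen. Within Myeloid cells, across 2547 cells thinned to 2000 UMIs and 4521 genes detected in at least 5% of them, summed C1q counts went most closely with *Ccl8* (mean Spearman correlation 0.52), a chemokine, *Lgmn* (0.47), the lysosomal protease legumain, *Ccl12* (0.44), *Ms4a7* (0.40), *Gatm* (0.38) and *Ch25h* (0.36), which makes 25-hydroxycholesterol. *Srgn* (-0.33), *Btg1* (-0.33), *Malat1* (-0.28), *Nfkbia* (-0.28) and the inflammatory cytokine gene *Il1b* (-0.28) went most against it. *Apoe* went with *Lyz2* (0.36), *Ctss* (0.36) and *Lgmn* (0.35), and *Trem2* with *Ctsb* (0.32) and *Lgmn* (0.31). *Spp1* had no close partner in Myeloid, the highest being *S100a6* at 0.18. These are descriptions over cells that share libraries.

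Other list genes also differed at least 2-fold between libraries, *Ctsk* by far more than any of the 9 genes. *Ctsk*, a protease of osteoclasts and some macrophages, had 113, 9.47, 73.2 and 329 CPM in Myeloid cells of M1, M2, M5 and M6, a 34.7-fold range. *Atp6v0d2*, a proton pump subunit, had 11.7, 5.01, 9.81 and 41.2. *Lpl*, lipoprotein lipase, had 28.2, 69.3, 92.5 and 75.5, and the cholesterol exporter gene *Abca1* had 56.6, 95.1, 139 and 143, both lowest in M1, where C1q was highest. *Ch25h* at 144, 111, 82.6 and 69.1, *Siglec1* at 29.9, 26.7, 21.4 and 14.5 and *Cd209a* at 29.3, 26.8, 17.1 and 5.36 were ordered as C1q was.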
